A study of Mus musculus with 25 samples.

Results

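The genes described here carry the signal of the interleukin-6 (IL-6) cytokine family from ligand to transcription factor in mouse spinal cord astrocytes. The 9 members were taken by gene symbol: the ligands Clcf1 and Lif, the receptor chains Osmr, Lifr and Il6st, the kinases Jak1 and Jak2, the transcription factor Stat3 and the feedback inhibitor Socs3. Each had a row in at least 1 of the 4 deposited tables, which together held 12454 genes. Stat3, Osmr, Il6st, Lifr, Jak1 and Jak2 had a row in each of the 4 tables. Socs3 had none in the Smarca4cKO LPS table, Clcf1 only had rows in the WT LPS and the Smarca4cKO SCI tables, and Lif only in the Smarca4cKO SCI table.

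IL-6 family cytokines bind cell-surface receptors that share the signalling chain gp130, the product of Il6st. Receptor-bound JAK kinases then phosphorylate STAT3, which moves to the nucleus and activates target genes, one of which, Socs3, encodes an inhibitor of gp130 and the JAKs. In astrocytes this pathway is known for its part in reactivity and in scar formation around spinal cord lesions.

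RNA was measured as messages bound to astrocyte ribosomes in thoracic spinal cord, pulled down through a haemagglutinin (HA) tag on a ribosomal protein (RiboTag). Both the tag and the gene deletions were driven by Gfap-Cre, so they lie in any cell with a history of Gfap promoter activity. Wild-type (WT) mice were GfapCre:Ribotagfl/fl on C57BL6 (spelled fl/fll in the WT labels), Stat3cKO mice carried Stat3fl/fl as well, and Smarca4cKO mice carried Smarca4fl/fl, the gene of a chromatin remodelling ATPase, on C57BL6;129S2. Uninjured mice had no treatment (4 WT, 3 Stat3cKO and 3 Smarca4cKO libraries). Lipopolysaccharide (LPS), a bacterial cell-wall component that causes systemic inflammation, was injected intraperitoneally at 5 mg/kg and the cord taken after 24 hours (4 WT, 4 Stat3cKO and 3 Smarca4cKO libraries). A complete crush spinal cord injury (SCI) at T10 was made in Smarca4cKO mice only and the cord taken after 14 days (4 libraries). From injured mice 3 mm of cord centred on the lesion was taken with a margin of 1 mm above and below, and the other groups gave matching cord. The labels give no age and no sex. Library titles are animal numbers, and replicates were numbered within a group in accession order.

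The 25 libraries held between 52433934 and 106513035 counts each. Levels are given as CPM, counts scaled to the same total in each library, on 1 scale for the 7 groups. Each of 10 astrocyte markers was present, with a summed level of 33780 to 69179 CPM. Astrocyte RNA was not the only RNA in the pull-down: in SCI replicate 1 the 6 oligodendrocyte markers summed to 36162 CPM and the 10 astrocyte markers to 33780 CPM. Smarca4 was lower in Smarca4cKO than in WT libraries, at 12.7 to 21.8 CPM against 64 to 90.3 CPM when uninjured, but the libraries labelled Smarca4cKO LPS ran from 0.0166 CPM in replicate 1 through 5.7 CPM in replicate 3 to 50 CPM in replicate 2. In bulk RNA, fewer cells of a type and less RNA per cell cannot be told apart. Low counts differed widely between animals of a group: in the Smarca4cKO LPS group, 21.7% of genes had at most 10 counts in 1 library and at least 100 in another, against 1.67% in the SCI group and 5.32% in the WT LPS group. In the uninjured Smarca4cKO libraries, the baseline of both Smarca4cKO comparisons, the share was 30.2% in the SCI table and 13.9% in the LPS table.

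Differences were tested across all genes of the tables concerned with edgeR's quasi-likelihood test, and a gene was called at a Benjamini-Hochberg adjusted p under 0.05. Log2 differences carry the standard error (SE) of that fit. Every member with a row passed the filter on low counts. Clcf1, Lif and, outside WT mice, Osmr had nearly no counts in uninjured mice, and so had Socs3 in Smarca4cKO mice. In other uninjured mice Socs3 was low, with at most 151 counts in a WT and 280 in a Stat3cKO library. These genes passed mainly through their challenged libraries, which makes their being higher there partly a matter of entry.

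Markers of other cell types differed between groups, most of all after SCI. In the SCI table, the 6 oligodendrocyte markers summed to 26134 to 36162 CPM after SCI against 5903 to 11249 CPM uninjured, the 3 progenitor markers to 506 to 870 CPM against 207 to 274 CPM, and 5 of 6 neuron markers to 284 to 346 CPM against 195 to 268 CPM. Of these neuron markers Tubb3 (mean 122 against 20.7 CPM) and Stmn2 (93.5 against 7.39 CPM) had higher means. Snap25 (66.2 against 135 CPM), Nefl (30.6 against 68.1 CPM) and Rbfox3 (3.15 against 11.2 CPM) had lower means. There 7 of 10 microglia and macrophage markers had rows and summed to 207 to 894 CPM against 12.3 to 258 CPM, with Aif1 at 0 when uninjured. The 5 fibroblast markers summed to 450 to 798 CPM against 180 to 237 CPM, with Lum at 0 when uninjured, and 4 of 5 pericyte and smooth muscle markers to 142 to 204 CPM against 16.8 to 73.2 CPM. Within the latter sum Tagln (mean 120 against 3.35 CPM), Kcnj8 and Acta2 had higher means, and Pdgfrb had a lower one (20.2 against 43.8 CPM). Of 7 endothelial markers 2 had rows, at 0 to 12.8 CPM uninjured and 3.16 to 20 CPM after SCI, and none of 6 neutrophil markers had one. The 10 astrocyte markers overlapped, at 33780 to 45313 CPM after SCI against 42682 to 47325 CPM uninjured. Among them Gfap (mean 22265 against 14017 CPM), Aqp4 and Sox9 had higher means, and S100b overlapped. Slc1a2 (4207 against 10687 CPM), Aldoc (4560 against 10395 CPM), Slc1a3, Aldh1l1, Gja1 and Slc4a4 were lower in every SCI library.

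In the libraries labelled Stat3cKO LPS, 5 microglia and macrophage markers summed to 58.8 to 177 CPM against 5.16 to 38.5 CPM uninjured, 6 oligodendrocyte markers to 9234 to 12086 CPM against 5336 to 6933 CPM, 6 neuron markers to 442 to 698 CPM against 240 to 300 CPM and 3 endothelial markers to 7.31 to 15.9 CPM against 3.06 to 5.17 CPM. Lower there were 4 fibroblast markers (141 to 160 CPM against 219 to 268 CPM), 3 progenitor markers (62.1 to 114 CPM against 141 to 216 CPM) and, by a small margin, the 10 astrocyte markers (43323 to 48660 CPM against 48833 to 48969 CPM). Within that astrocyte sum the mean of Gfap was higher (10548 against 5418 CPM), as were those of S100b, Sox9 and Aldh1l1. The other means were lower, such as Aqp4 (1617 against 3965 CPM) and Gja1 (1440 against 3349 CPM). In the libraries labelled Smarca4cKO LPS, 3 pericyte and smooth muscle markers summed to 81.2 to 175 CPM against 16.8 to 73.2 CPM and the 10 astrocyte markers to 55709 to 57859 CPM against 42682 to 47325 CPM. Of those 3 markers Tagln (mean 77.8 against 3.35 CPM) and Kcnj8 had higher means, and Pdgfrb had a lower one (31.2 against 43.8 CPM). Gfap alone had a mean of 24262 CPM there against 14017 CPM uninjured, while Aqp4, Gja1, S100b and Slc4a4 had lower means. In WT mice the 4 fibroblast markers were lower after LPS (174 to 206 CPM against 224 to 381 CPM), while the ranges overlapped for the other lists with rows, such as 15.7 to 34.9 against 8.98 to 86.5 CPM for 5 microglia and macrophage markers and 5329 to 11208 against 5587 to 9817 CPM for oligodendrocytes. The part of these cells in the members' levels was not tested.

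**Figure D1:**
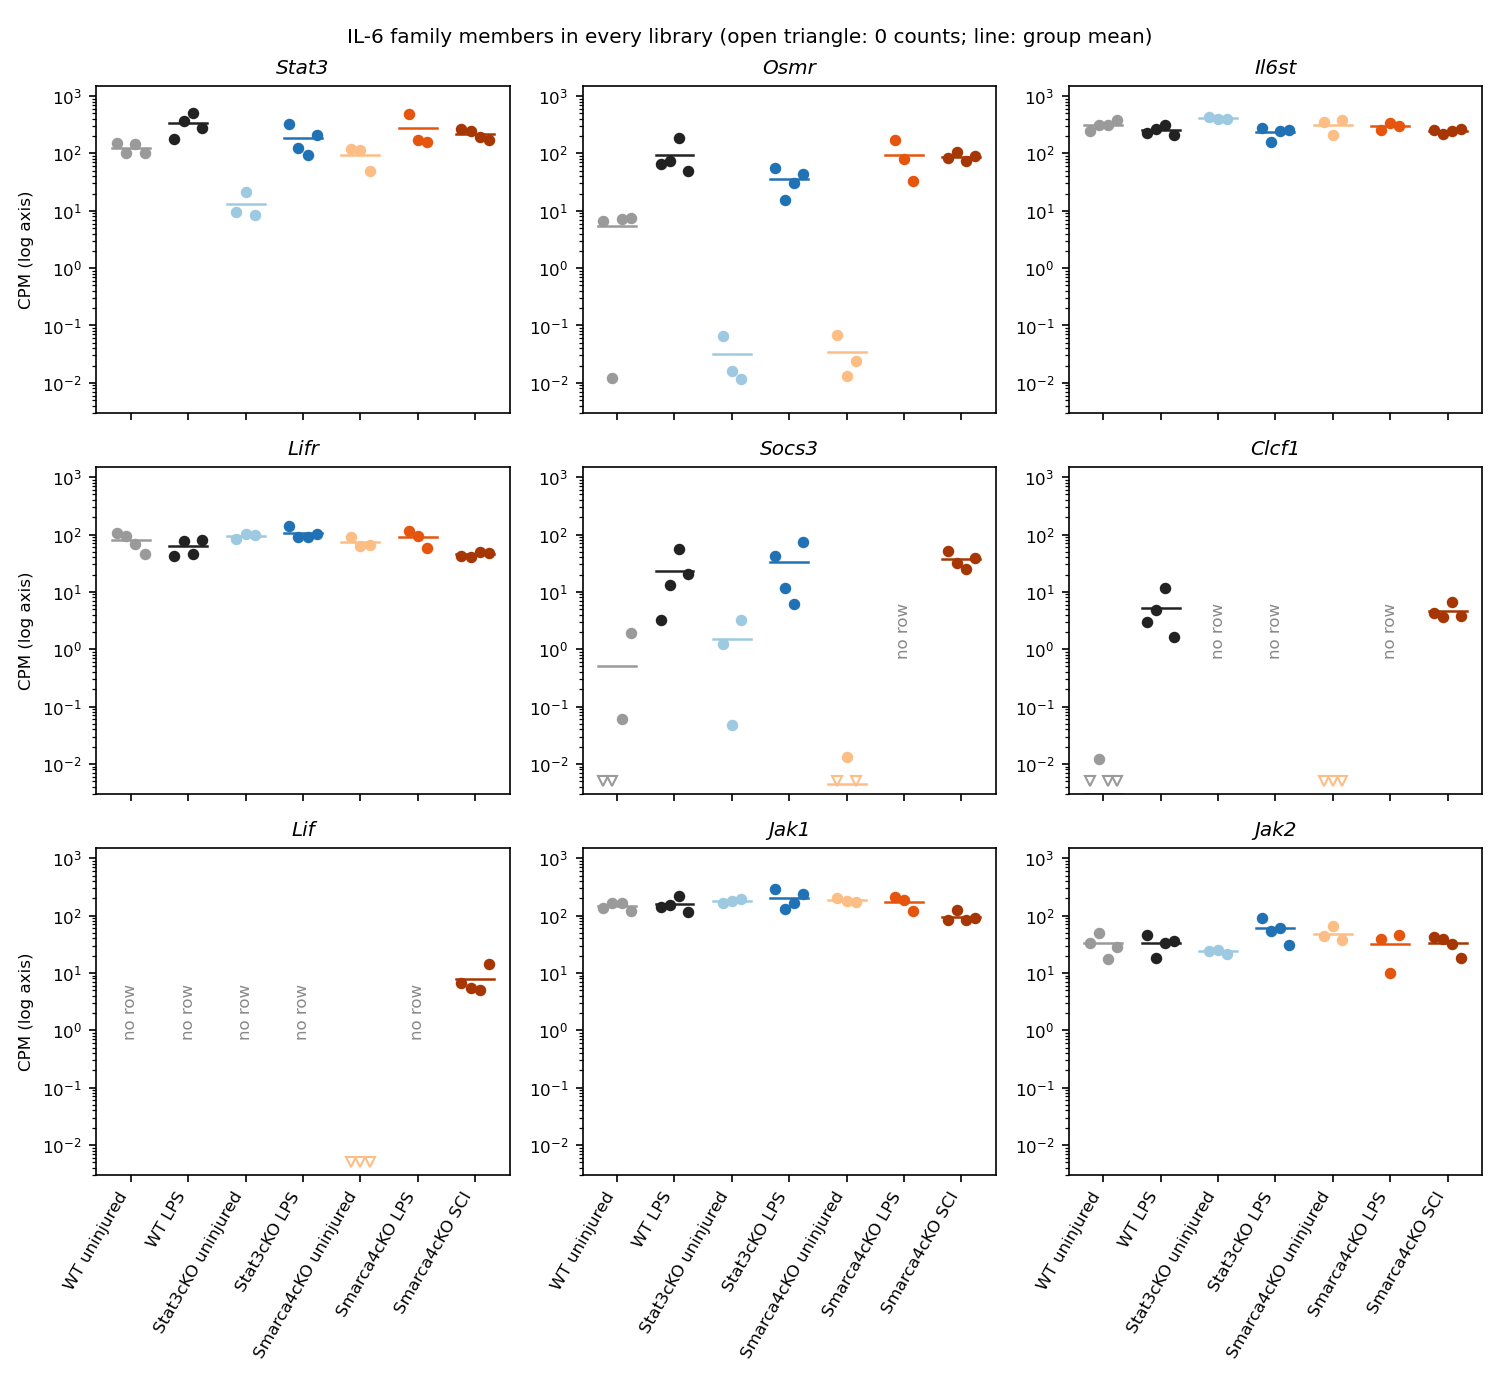
Levels of the 9 members in CPM on a log axis, 1 point per library and 1 column per group, with a line at the group mean; open triangles are libraries with 0 counts and "no row" marks a gene absent from that group's table. Il6st, Lifr, Jak1 and Jak2 stay within 1 order of magnitude in every group, Stat3 is lowest in the 3 uninjured Stat3cKO libraries (8.61 to 21.6 CPM), Clcf1 and Lif start near 0, and so does Osmr except in 3 of the 4 uninjured WT libraries (6.73 to 7.55 CPM). Socs3 reaches at most 3.25 CPM in uninjured libraries.

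The promoters of Socs3, Osmr and Lif are shown because these members were low or at 0 in uninjured mice and higher after challenge, and because Socs3 is a textbook STAT3 target. RefSeq windows (GRCm38.p6) of 300 bases, from 250 before to 50 after the annotated start, were searched for TTCNNNGAA, the palindrome known as the STAT site. The motif reads the same on both strands, so each match was counted once. A window was found for 8 of the 9 members (Lifr had a pair, Clcf1 none), and 1 of the 9 windows held the motif, that of Socs3, with its first base 154 bases before the start (position -154). Among all 32851 windows of this length, 2726 (8.3%) held at least 1 match. The match is a description of the letters, and its absence elsewhere says nothing about binding. The windows of Socs3 and Osmr lie wholly inside the GENCODE gene spans given below. Their RefSeq starts thus differ from those gene starts, and position -154 is counted from the RefSeq start. Sequences are written 5′ to 3′ on the gene's strand in lower case, with the matched motif in capitals; they lie at chr11:117969317-117969616 (minus strand, Socs3), chr15:6874264-6874563 (minus strand, Osmr) and chr11:4257318-4257617 (plus strand, Lif).
Socs3: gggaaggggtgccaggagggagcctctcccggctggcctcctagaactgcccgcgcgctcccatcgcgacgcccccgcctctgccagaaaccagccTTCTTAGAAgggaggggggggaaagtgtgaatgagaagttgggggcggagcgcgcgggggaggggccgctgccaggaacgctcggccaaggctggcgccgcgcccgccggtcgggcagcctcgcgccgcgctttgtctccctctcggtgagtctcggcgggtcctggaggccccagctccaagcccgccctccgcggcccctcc
Osmr: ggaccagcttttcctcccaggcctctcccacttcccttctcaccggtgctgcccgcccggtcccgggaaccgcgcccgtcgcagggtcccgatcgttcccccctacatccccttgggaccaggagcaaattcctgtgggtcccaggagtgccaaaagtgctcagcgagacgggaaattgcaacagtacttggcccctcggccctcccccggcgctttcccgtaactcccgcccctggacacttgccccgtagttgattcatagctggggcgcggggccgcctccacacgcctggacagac
Lif: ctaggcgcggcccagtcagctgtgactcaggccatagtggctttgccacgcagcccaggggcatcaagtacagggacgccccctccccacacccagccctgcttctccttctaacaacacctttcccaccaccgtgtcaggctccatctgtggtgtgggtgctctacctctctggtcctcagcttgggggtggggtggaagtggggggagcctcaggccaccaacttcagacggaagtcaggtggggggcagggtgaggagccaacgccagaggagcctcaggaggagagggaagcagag

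Where they had rows, the ligands Clcf1 and Lif were near absent from uninjured libraries and present at low levels after challenge. Clcf1 (chr19:4214238-4223490, plus strand, GENCODE M21 on GRCm38) encodes cardiotrophin-like cytokine factor 1, which signals through the CNTF receptor complex. In uninjured WT libraries 1 to 4 it stood at 0, 0.0121, 0 and 0 CPM, and after LPS at 3, 4.82, 11.8 and 1.61 CPM. The groups did not overlap, and replicate 3 was the highest after LPS. With 1 count in all 4 uninjured libraries against 1520 after LPS, the ratio was 1282 (95% counting interval 230 to 50655), and edgeR called it (adjusted p = 0.0284). The call was lost in 5 of the 8 fits that left out 1 library, with the adjusted p between 0.0452 and 0.0861 over these fits: without LPS replicate 2 or 3, or uninjured replicate 1, 3 or 4.

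After SCI, Clcf1 stood at 4.31, 3.62, 6.66 and 3.74 CPM, with 0 counts in the 3 uninjured Smarca4cKO libraries. These 4 libraries lay within the range of the WT LPS group. The level after SCI was at least 381-fold higher than the floor of 3 counts over the uninjured group, and edgeR called the difference (adjusted p = 0.00652), also in each of 7 fits without 1 library.

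Lif (chr11:4257557-4272514, plus strand) encodes leukaemia inhibitory factor, which signals through Lifr and gp130. It had 0 counts in the 3 uninjured Smarca4cKO libraries and stood at 6.68, 5.37, 4.95 and 14.6 CPM after SCI, with replicate 4 the highest. That is at least 629-fold higher than the floor of 3 counts over the uninjured group (edgeR, adjusted p = 0.00652), and the call held in each of 7 fits without 1 library. The summed markers of oligodendrocytes, of fibroblasts and of pericytes and smooth muscle were also higher in all 4 injured libraries, although the pericyte marker Pdgfrb was not. The part of these cells in Lif and Clcf1 was not tested. No level can be given for the other groups.

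Of the other ligands of the family, Cntf and Ctf1 were tested in each of the 4 comparisons with uninjured mice, and neither was called in any of them. Cntf, ciliary neurotrophic factor, had the group means 12.9 ± 11.1 CPM in uninjured WT (SD, n = 4) and 14 ± 10.7 CPM in WT after LPS (SD, n = 4). Its uninjured WT libraries ran from 0 to 26.5 CPM. Rows for the ligands Il6, Il11, Il27, Ebi3, Osm and Ctf2 were not analysed here.

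Among the receptors, Osmr differed most between conditions, while its partner chains Il6st and Lifr differed by less than 1 log2 unit in each comparison with uninjured mice. Osmr (chr15:6813577-6874969, minus strand) encodes the oncostatin M receptor chain that pairs with gp130. In uninjured WT libraries it stood at 6.73, 0.0121, 7.09 and 7.55 CPM. Replicate 2, with 1 count, was far below the other 3. After LPS the WT libraries held 64.4, 72.4, 185 and 48.6 CPM, all above the uninjured ones, with replicate 3 the highest. The log2 difference was 4.08 ± 1.01 (SE, n = 4 and 4) and missed the threshold in edgeR (adjusted p = 0.0553). Without uninjured replicate 2 it was 3.66, with an adjusted p of 0.00758 in the same test, and over the 8 fits without 1 library it lay between 3.50 and 4.30. In the authors' deposited table the false discovery rate was 0.000705.

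In uninjured Stat3cKO libraries Osmr stood at 0.0665, 0.016 and 0.0116 CPM, 7 counts in all. In the libraries labelled Stat3cKO LPS it stood at 55.1, 15.3, 30.8 and 44.2 CPM. The groups were far apart, and edgeR called the log2 difference of 10.11 ± 0.85 (SE, n = 3 and 4, adjusted p = 5.46e-05), as it did in each of 7 fits without 1 library. The fold rests on those 7 counts.

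In uninjured Smarca4cKO libraries Osmr stood at 0.0672, 0.0134 and 0.0242 CPM, 9 counts in all. In the libraries labelled Smarca4cKO LPS it stood at 173, 79.4 and 32.5 CPM, with no overlap. The log2 difference of 11.33 ± 1.40 (SE, n = 3 and 3) was not called in edgeR (adjusted p = 0.0719), although in the authors' deposited table its false discovery rate was 6.52e-09. After SCI it stood at 84.2, 104, 73.9 and 90.8 CPM, the narrowest spread of the challenged groups (coefficient of variation 14.5% against 47.4% to 75.1%). Here edgeR called the log2 difference of 11.15 ± 0.72 (SE, n = 3 and 4, adjusted p = 0.000569), also in each of 7 fits without 1 library.

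In order of group means, Osmr ran from 94.8 CPM in Smarca4cKO LPS, 92.7 CPM in WT LPS and 88.3 CPM in SCI, whose libraries overlapped, to 36.3 CPM in Stat3cKO LPS, then 5.35 CPM in uninjured WT and 0.0349 and 0.0314 CPM in uninjured Smarca4cKO and Stat3cKO. Every library labelled Stat3cKO LPS lay below every SCI library and above every uninjured WT library.

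Il6st (chr13:112464070-112510086, plus strand) encodes gp130. Per kilobase of exon it had the highest level of the members in uninjured WT mice, with a mean of 28.2 CPM per kb against 13.3 for Stat3, 20.6 for Jak1, 7.29 for Lifr and 0.441 for Osmr. Its uninjured libraries held 246, 313, 316 and 377 CPM in WT, 433, 404 and 394 CPM in Stat3cKO, and 352, 213 and 387 CPM in Smarca4cKO. After LPS it stood at 225, 271, 318 and 211 CPM in WT, at 276, 156, 242 and 258 CPM in libraries labelled Stat3cKO and at 252, 334 and 299 CPM in those labelled Smarca4cKO. The groups overlapped in WT and Smarca4cKO, but all 4 Stat3cKO LPS libraries lay below the 3 uninjured ones. Il6st fell in Stat3cKO mice by 0.80 ± 0.19 on the log2 scale (SE, n = 3 and 4; edgeR, adjusted p = 0.0258). That call was lost without any 1 of the 3 uninjured libraries, with adjusted p up to 0.0995. The difference was -0.32 ± 0.20 in WT mice (adjusted p = 0.561, edgeR).

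After SCI, Il6st stood at 253, 221, 250 and 266 CPM. The log2 difference of -0.42 ± 0.20 was not called in edgeR (adjusted p = 0.26), but without uninjured replicate 2, the lowest of its group at 213 CPM, it was called (adjusted p = 0.0214).

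Lifr (chr15:7090614-7197489, plus strand) encodes the LIF receptor chain, which pairs with gp130. Its group means lay between 45.3 and 106 CPM. edgeR called it in no comparison with all libraries. After SCI its libraries held 42.8, 40.1, 50 and 48.4 CPM, all below the 3 uninjured libraries at 90.9, 62.5 and 65.5 CPM. The log2 difference was -0.76 ± 0.28 (SE, n = 3 and 4), with an adjusted p of 0.142 in edgeR, while DESeq2 called it (-0.74, adjusted p = 0.0104). The WT LPS libraries, at 42.9, 77.2, 45.8 and 81.8 CPM, overlapped the uninjured ones at 107, 94, 68.7 and 45.1 CPM.

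Of 5 other receptor chains, Il6ra, Il11ra1 and Cntfr had rows. None was called after LPS in any genotype. Cntfr, the ligand-binding chain of the CNTF receptor, fell after SCI from 762 ± 188 CPM (SD, n = 3) to 303 ± 59.8 CPM (SD, n = 4), by 1.41 ± 0.24 on the log2 scale (SE; edgeR, adjusted p = 0.00652). Il6ra, the IL-6 binding chain, stood at 0 to 2.89 CPM in uninjured WT and at 4.99 to 10.6 CPM in WT LPS libraries, a difference that edgeR did not call (adjusted p = 0.549).

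The kinases moved in separate comparisons. Jak1 (chr4:101152367-101265282, minus strand) encodes the kinase most closely tied to gp130. It stood at 205, 183 and 176 CPM in uninjured Smarca4cKO libraries and at 83.5, 125, 84 and 90.9 CPM after SCI. All 4 injured libraries lay below the uninjured ones. Jak1 fell by 1.05 ± 0.19 on the log2 scale (SE, n = 3 and 4; edgeR, adjusted p = 0.00716), and the call held in each of 7 fits without 1 library. After LPS its libraries held 139, 152, 220 and 114 CPM in WT, overlapping the uninjured 138, 169, 165 and 122 CPM. The differences after LPS were 0.04 ± 0.23 in WT (95% interval -0.47 to 0.54), 0.20 ± 0.26 in Stat3cKO (-0.37 to 0.77) and -0.12 ± 0.29 in Smarca4cKO (-0.78 to 0.55), none called.

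Jak2 (chr19:29251828-29313080, plus strand) encodes a second JAK that gp130 complexes use. In uninjured Stat3cKO libraries it stood at 24.3, 25.5 and 21.6 CPM, and in those labelled Stat3cKO LPS at 92.6, 54.8, 60.2 and 30.8 CPM. The groups did not overlap. Jak2 rose by 1.34 ± 0.35 on the log2 scale (SE, n = 3 and 4; edgeR, adjusted p = 0.036). The call held only without LPS replicate 4 (adjusted p = 0.00873) and was lost without each of the other 6 libraries, with adjusted p up to 0.119. In WT mice the log2 difference was 0.01 ± 0.41 (95% interval -0.87 to 0.89), with 33.3, 50.6, 17.8 and 28.8 CPM before and 45.9, 18.1, 33.8 and 36.4 CPM after LPS. In Smarca4cKO mice Jak2 ran from 9.89 to 45.4 CPM after LPS and from 17.9 to 43.1 CPM after SCI, and neither difference from uninjured mice was called.

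Of the other kinases and STATs, Stat2, which acts in type I interferon signalling, rose in Stat3cKO mice after LPS by 3.08 ± 0.32 on the log2 scale (SE, n = 3 and 4), from 10 ± 1.33 CPM to 84.2 ± 29.5 CPM (SD; edgeR, adjusted p = 0.000244). Stat6, the STAT of interleukin-4 signalling, had 0 counts in the 3 uninjured libraries and stood at 4.26 to 23.6 CPM after SCI, which is at least 1196-fold higher than the floor of 3 counts over the group (edgeR, adjusted p = 0.00756).

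Stat3 (chr11:100885098-100939540, minus strand) encodes the transcription factor itself and is the gene deleted in Stat3cKO mice. In uninjured mice the deletion showed: WT libraries stood at 153, 101, 149 and 103 CPM and Stat3cKO libraries at 9.41, 21.6 and 8.61 CPM, with no overlap. The log2 difference was -3.26 ± 0.38 (SE, n = 4 and 3; edgeR, adjusted p = 0.0116). It was lost without Stat3cKO replicate 1 or 3, with adjusted p up to 0.122. The libraries labelled Stat3cKO LPS, however, held 322, 126, 92.8 and 212 CPM, from below to above the uninjured WT range. The tables count whole genes and do not say which exons were read, so in those 4 libraries the count does not show whether the deleted part was present, and the Stat3 count there goes against the label.

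After LPS, every library held more Stat3 than any uninjured library of the same genotype. WT libraries stood at 177, 364, 516 and 282 CPM, all above the uninjured ones, and the log2 difference of 1.37 ± 0.30 (SE, n = 4 and 4) was called in edgeR (adjusted p = 0.0362). It stayed between 1.08 and 1.59 without any 1 library, but only the fit without LPS replicate 1 (adjusted p = 0.0176) kept the call, and adjusted p reached 0.112 in the others. In libraries labelled Stat3cKO LPS it rose by 3.85 ± 0.51 on the log2 scale (SE, n = 3 and 4; edgeR, adjusted p = 0.00108), with the call held in each of 7 fits. The markers of microglia and macrophages and of oligodendrocytes were higher in the same 4 libraries, with their part not tested. The rise started from 13.2 ± 7.26 CPM (SD, n = 3), against 126 ± 28.5 CPM (SD, n = 4) in WT.

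In Smarca4cKO mice Stat3 stood at 118, 117 and 48.7 CPM uninjured, at 492, 169 and 159 CPM after LPS and at 267, 242, 192 and 174 CPM after SCI. Neither challenged group overlapped the uninjured one. The log2 differences of 1.53 ± 0.55 after LPS (adjusted p = 0.606) and 1.13 ± 0.33 after SCI (adjusted p = 0.0621) were not called in edgeR. Without uninjured replicate 3, the lowest of its group, the difference after SCI was called (adjusted p = 0.038), and DESeq2 called it with all libraries (adjusted p = 0.00261). In the authors' deposited table the false discovery rate was 0.186 after LPS and 0.00721 after SCI.

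Socs3 (chr11:117966079-117970047, minus strand) is the inhibitor whose RefSeq window holds the STAT motif printed above. It had the widest spread between animals of the members in the WT and Stat3cKO LPS groups (coefficients of variation 98.6% and 93.1%). Uninjured WT libraries stood at 0, 0, 0.0599 and 1.95 CPM and WT LPS libraries at 3.23, 13.3, 56.2 and 20.7 CPM. The groups did not overlap, yet the highest LPS library was 17.4 times the lowest. The log2 difference of 5.49 ± 1.83 (SE, n = 4 and 4) was not called in edgeR (adjusted p = 0.163). Without uninjured replicate 4, the library at 1.95 CPM, it was 10.16 and called (adjusted p = 0.0456). The authors' deposited table gave a false discovery rate of 0.0205.

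In Stat3cKO mice Socs3 stood at 1.21, 0.048 and 3.25 CPM uninjured and, in the libraries labelled LPS, at 41.9, 11.5, 6.11 and 72.7 CPM. It rose by 4.47 ± 1.25 on the log2 scale (SE, n = 3 and 4; edgeR, adjusted p = 0.0466). The call held only without LPS replicate 3 (adjusted p = 0.0337). It was lost without each of the other 6 libraries, with adjusted p up to 0.156.

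After SCI, Socs3 stood at 50.8, 32.3, 25.1 and 39.6 CPM, a 2.03-fold range, against 0, 0.0134 and 0 CPM in uninjured Smarca4cKO libraries. With 1 count against 13291, the ratio was 9360 (95% counting interval 1680 to 369724). Socs3 was called in edgeR (adjusted p = 0.00389) and in each of 7 fits without 1 library. The part of the other cell types whose markers were higher after SCI was not tested.

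Of 16 other negative regulators, 11 were tested in WT mice after LPS and 9 in Smarca4cKO mice after LPS, and none was called. In Stat3cKO mice 3 of 14 rose, against 7.12% of all 11709 genes tested there. Socs2, a feedback inhibitor of growth hormone signalling, went from 1.5 ± 1.45 CPM to 31.7 ± 24.2 CPM (edgeR, adjusted p = 0.0461). Ptpn1, a phosphatase that acts on JAK2 and TYK2, went from 31 ± 4.57 CPM to 87.5 ± 39.5 CPM (adjusted p = 0.0231, edgeR), and Socs7 from 33.4 ± 9.72 CPM to 77.8 ± 25.7 CPM (adjusted p = 0.0355, edgeR). These are means with SD over 3 uninjured and 4 LPS libraries. After SCI 2 of 11 fell, against 4.31% of all 11109 genes: the receptor phosphatase Ptprt by 1.68 ± 0.41 and Socs7 by 1.22 ± 0.32 on the log2 scale (edgeR, adjusted p = 0.0285 and 0.0377).

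**Figure D2:**
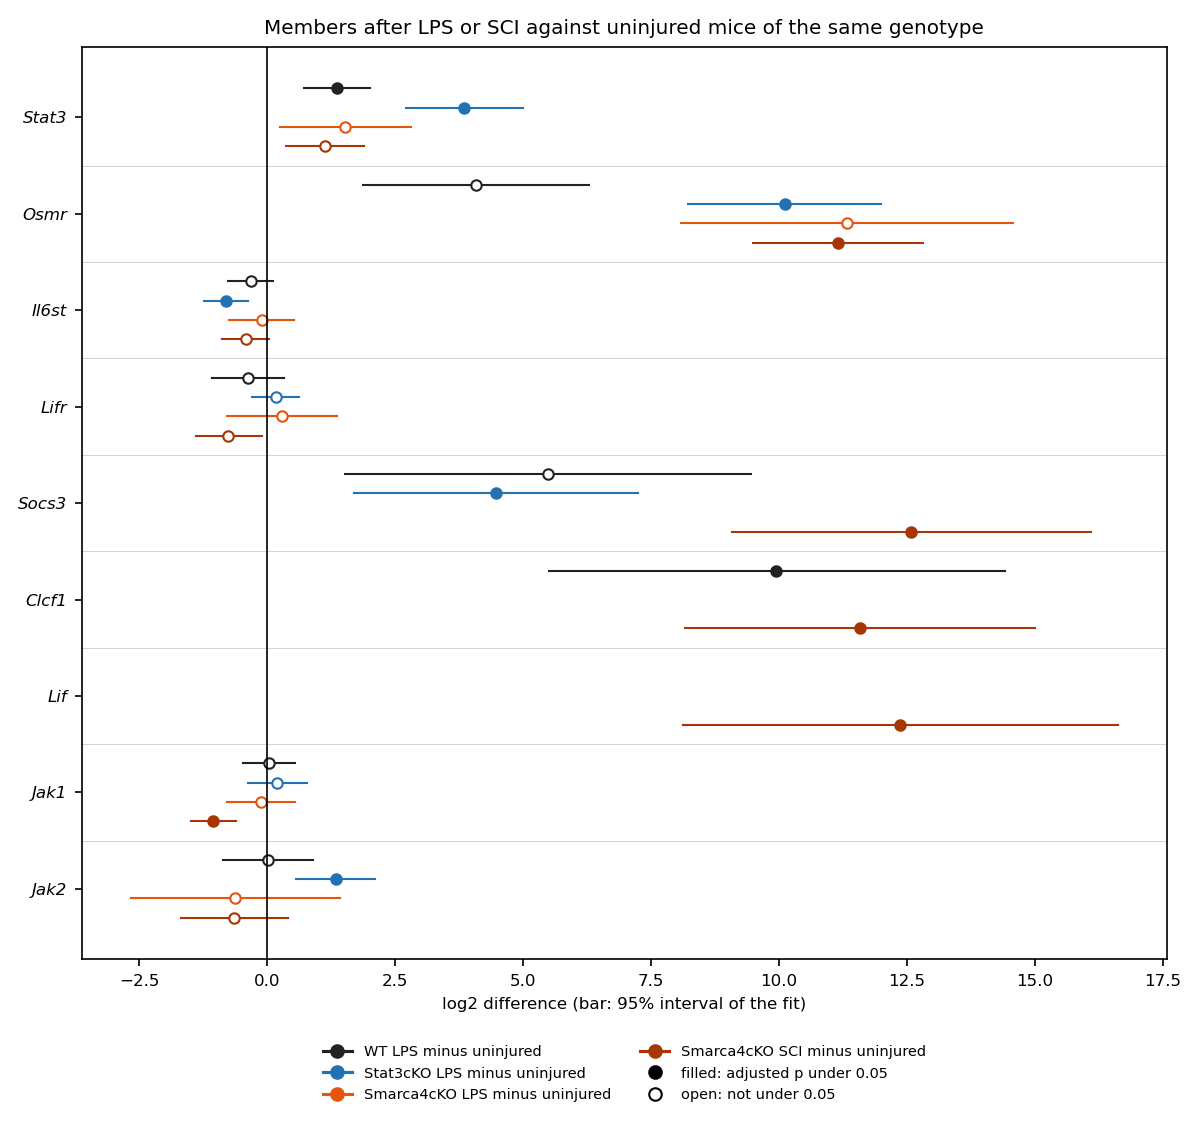
Log2 differences from uninjured mice of the same genotype for the 9 members, with 95% intervals of the edgeR fit; filled points had an adjusted p under 0.05 and comparisons with no point had no row. Il6st, Lifr, Jak1 and Jak2 lie between -1.05 and 1.34, Stat3 lies above 0 in all 4 comparisons, and the fitted values of genes at or near 0 counts when uninjured (Clcf1, and Lif and Socs3 in SCI) depend on the fit's prior and are no fold.

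Counted together, 2 of 8 members were called in WT mice after LPS (Stat3 and Clcf1), both higher. Among all 10566 genes tested there, 1.54% were called higher and 0.994% lower. In Stat3cKO mice after LPS, 5 of 7 were called, with Stat3, Osmr, Socs3 and Jak2 higher and Il6st lower, against 7.12% of 11709 genes called higher and 3.44% lower. In Smarca4cKO mice after LPS, 0 of 6 members were called, against 0.0249% of 8040 genes called higher and 0% lower. That fit made few calls at all: 468 genes had an unadjusted p under 0.05, Stat3 (0.0243) and Osmr (4.47e-05) among them, while DESeq2 called 202 genes higher and 86 lower, Stat3 (adjusted p = 0.0346) and Osmr (adjusted p = 6.13e-31) included. After SCI, 5 of 9 were called, with Osmr, Socs3, Clcf1 and Lif higher and Jak1 lower, against 10.1% of 11109 genes called higher and 4.31% lower. DESeq2 called 7 of 9 there, with Stat3 and Lifr added. As said, Clcf1, Lif, Socs3 and Osmr entered those tables mainly through their challenged counts, so their share is no support for the family as a whole. The 2 Smarca4cKO comparisons share the same 3 uninjured libraries.

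Animals of 1 group differed in how far several members went. In the WT LPS group, replicate 3 was the highest of 4 libraries for Stat3, Osmr, Il6st, Socs3, Clcf1 and Jak1, 6 of the 8 members with a row, and not for Lifr and Jak2. In the group labelled Stat3cKO LPS, replicate 1 was the highest for 6 of 7, Socs3 being the exception. In the group labelled Smarca4cKO LPS, replicate 1 was the highest for Stat3, Osmr, Lifr and Jak1, 4 of 6, and it was also the library with Smarca4 at 0.0166 CPM. In WT LPS replicate 3 the 3 pericyte and smooth muscle markers in that table summed to 231 CPM, against 53.5 to 119 CPM in the other 3, and in Stat3cKO LPS replicate 1 the 5 microglia and macrophage markers summed to 177 CPM, against 58.8 to 132 CPM. Their part in the members' levels was not tested.

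**Figure D3:**
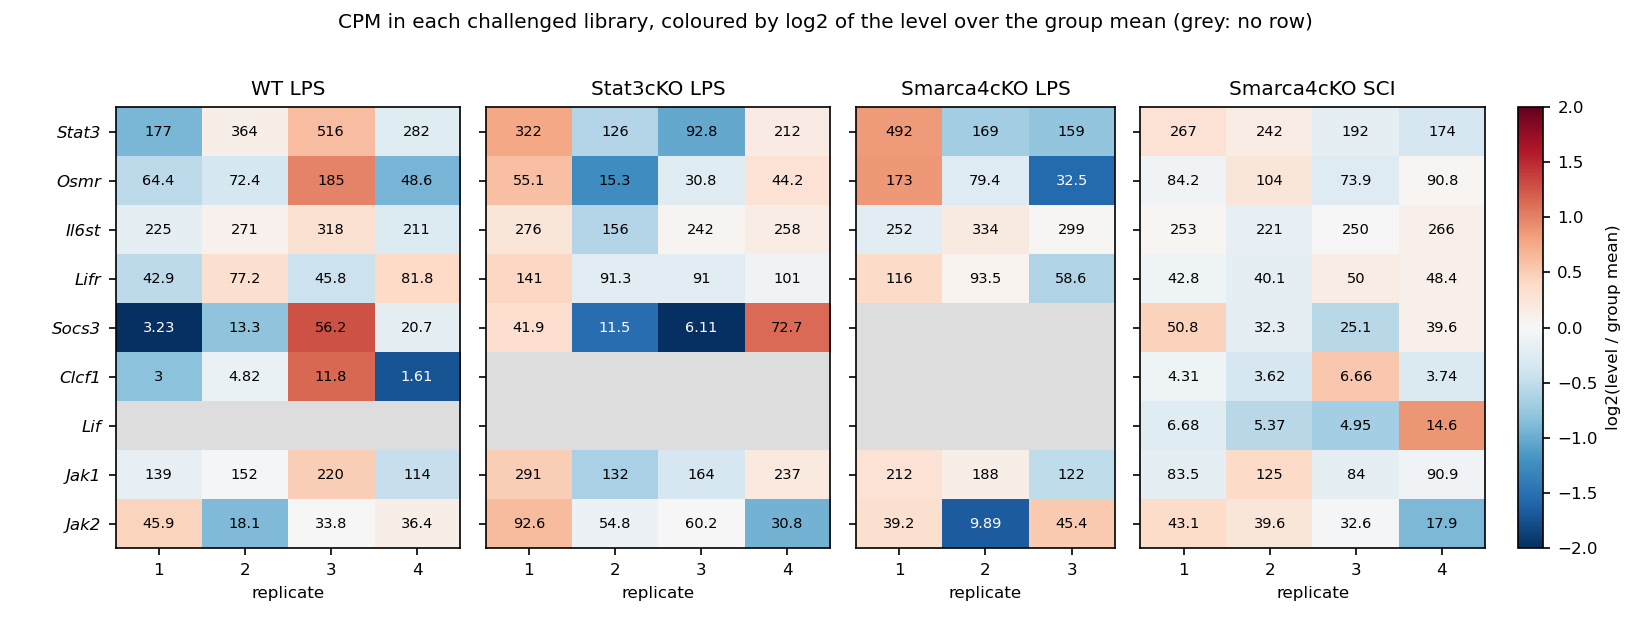
CPM of each member in each library of the 4 challenged groups, with colour for the log2 of the level over the group mean (red above, blue below, grey where the table has no row). In WT LPS replicate 3 reads red for Osmr (185 CPM), Socs3 (56.2 CPM) and Clcf1 (11.8 CPM), while Il6st varies little in any group.

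Between genotypes, the libraries come from separate tables and animals, and genotype goes with the strain label in Smarca4cKO mice, so genotype and strain cannot be told apart there. In uninjured Stat3cKO against uninjured WT mice, Stat3 was the 1 member called among 7 tested, against 0% of 10301 genes called higher and 0.0777% lower. Osmr differed by -7.33 ± 2.35 on the log2 scale (SE, n = 4 and 3, adjusted p = 0.572 in edgeR). WT replicate 2 was as low as the Stat3cKO libraries and the other 3 WT libraries stood at 6.73 to 7.55 CPM, yet without replicate 2 it was still not called (adjusted p = 0.197, edgeR). In uninjured Smarca4cKO against uninjured WT mice Osmr differed by -7.17 ± 2.47 (adjusted p = 0.37 in edgeR, and 0.268 without WT replicate 2). Of 6 members 0 were called, against 0.0127% of 7897 genes higher and 0% lower. There 749 genes, Osmr the 1 member among them, had an unadjusted p under 0.05 and DESeq2 called 153 genes higher and 203 lower, Osmr among them (adjusted p = 0.0121).

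After LPS, libraries labelled Stat3cKO had lower Osmr than WT ones, 15.3 to 55.1 CPM against 48.6 to 185 CPM, a log2 difference of -1.32 ± 0.47 (SE, n = 4 and 4) that was not called in edgeR (adjusted p = 0.282). Lifr was higher in every library labelled Stat3cKO LPS (91 to 141 CPM) than in any WT LPS library (42.9 to 81.8 CPM), by 0.80 ± 0.28 (adjusted p = 0.264 in edgeR). Stat3 differed by -0.80 ± 0.39 (95% interval -1.66 to 0.06), Socs3 by 0.53 ± 0.83 (-1.27 to 2.33) and Il6st by -0.11 ± 0.22 (-0.59 to 0.38). None of 7 members was called by edgeR, against 0.93% of 10327 genes higher and 0.494% lower, and Osmr, Lifr and Jak2 had an unadjusted p under 0.05, as had 1138 genes in all. DESeq2 called none of the 7 either. In LPS-treated Smarca4cKO against WT mice, none of 6 members was called by edgeR, against 0% of 7916 genes higher and 0% lower, none of the 6 had an unadjusted p under 0.05 (308 genes had), and DESeq2 called 10 genes higher and 24 lower with none of the 6 among them.

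**Figure D4:**
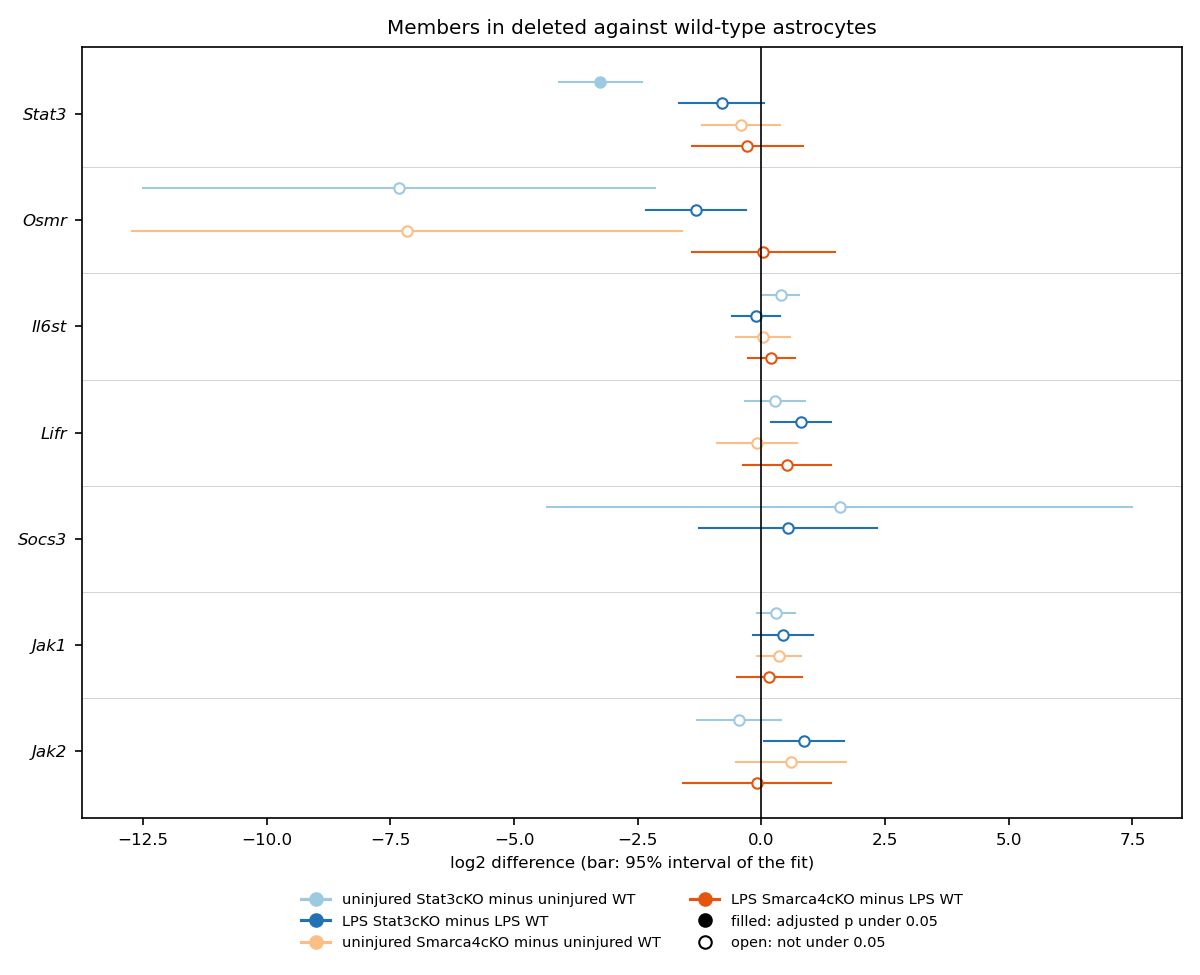
Log2 differences between genotypes for the 7 members with rows in more than 1 LPS table, uninjured (light) and after LPS (dark), with 95% intervals of the edgeR fit; filled points had an adjusted p under 0.05. Stat3 in uninjured Stat3cKO against WT mice (-3.26) is the 1 filled point, and the widest intervals are those of Socs3 (-4.33 to 7.49) and Osmr in uninjured mice.

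Whether the response to LPS itself differed was tested as an interaction. The Stat3cKO response exceeded the WT response by 2.45 ± 0.58 log2 units for Stat3 (95% interval 1.24 to 3.66) and by 6.0 ± 1.51 for Osmr (2.83 to 9.16), with adjusted p of 0.0739 and 0.0967 in edgeR. For both genes the uninjured Stat3cKO level was the lowest of the 4 groups compared. The Stat3 difference was called without WT LPS replicate 3, Stat3cKO LPS replicate 3 or Stat3cKO uninjured replicate 2 (adjusted p = 0.0258, 0.0363 and 0.0478), and the Osmr difference without WT LPS replicate 3 or WT uninjured replicate 2 (adjusted p = 0.0499 and 0.00281). None of 7 members was called with all libraries, against 0.3% of 10341 genes higher and 0.0774% lower, while 3 (Stat3, Osmr and Jak2) had an unadjusted p under 0.05, as had 960 genes, and DESeq2 called Stat3 (adjusted p = 0.000919). For Socs3 the responses differed by -1.05 ± 1.98 (-5.21 to 3.11), an interval too wide to show either likeness or difference.

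The Smarca4cKO response exceeded the WT response by 7.19 ± 1.75 log2 units for Osmr (95% interval 3.46 to 10.92), with an adjusted p of 0.166 in edgeR that fell to 0.0132 without WT uninjured replicate 2 and to 0.0258 without the library labelled Smarca4cKO LPS replicate 3. After LPS the Osmr means were 94.8 CPM in Smarca4cKO and 92.7 CPM in WT libraries, a log2 difference of 0.04 ± 0.63. The uninjured means were 0.0349 CPM in Smarca4cKO, from 9 counts in all, and 5.35 CPM in WT libraries. The uninjured log2 difference was -7.17 ± 2.47, and edgeR called the genotype difference neither when uninjured nor after LPS. For Stat3 the responses differed by 0.11 ± 0.62 (-1.21 to 1.43). None of 6 members was called, against 0.177% of 7919 genes higher and 0.139% lower. Of these genes 376 had an unadjusted p under 0.05, Osmr being the 1 member among them, and DESeq2 called Osmr (adjusted p = 0.000612).

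SCI and LPS were compared directly in Smarca4cKO mice. Osmr differed by -0.09 ± 0.50 on the log2 scale (95% interval -1.24 to 1.06) and Stat3 by -0.31 ± 0.41 (-1.27 to 0.65), while Lifr was lower after SCI in every library, with a log2 difference of -0.97 ± 0.32 (adjusted p = 0.173 in edgeR). Jak1 differed by -0.85 ± 0.25 (adjusted p = 0.138 in edgeR). Without the library labelled Smarca4cKO LPS replicate 3, both Lifr (adjusted p = 0.0441) and Jak1 (adjusted p = 0.0375) were called. With all libraries 0 of 6 were called, against 1.41% of 7960 genes higher and 1.66% lower. Lifr and Jak1 had an unadjusted p under 0.05, as had 1256 genes, and DESeq2 called none of the 6.

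Genes known as STAT3 targets were followed on a list of 30, made with earlier results of these data known. Several of them, Lcn2, Steap4, Lrg1 and Icam1 among them, were near 0 when uninjured and passed the filter on low counts through their challenged libraries, so the counts and medians of the list are a description and no support. In WT mice after LPS 9 of 29 tested were called higher and none lower (1.54% and 0.994% of all genes), with a median log2 difference of 1.61 against -0.00 over all genes. Lcn2, a secreted iron-siderophore binding protein, went from 0.15 ± 0.0536 CPM to 830 ± 670 CPM (SD, n = 4 and 4; edgeR, adjusted p = 4.79e-06), and Steap4, a metalloreductase, from 0.00775 ± 0.00937 CPM to 33 ± 27.3 CPM (adjusted p = 0.0012, edgeR). In Stat3cKO mice 16 of 27 rose and 1 fell (7.12% and 3.44% of all genes), with a median of 2.71 against -0.01 over all genes. Those that rose included Icam1, a leukocyte adhesion molecule, from 0.668 ± 1.08 CPM to 314 ± 240 CPM (SD, n = 3 and 4; edgeR, adjusted p = 0.00327), and Lcn2, from 0.437 ± 0.558 CPM to 78.8 ± 49.5 CPM (adjusted p = 0.000903, edgeR), and Hif1a, the hypoxia factor, fell by 0.97 ± 0.17 on the log2 scale (adjusted p = 0.00581, edgeR).

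In Smarca4cKO mice after LPS 2 of 23 were called, both higher (0.0249% of all genes were called higher and 0% lower), with a median of 1.55 against -0.00 over all genes. They were Lcn2, from 0.214 ± 0.0623 CPM to 774 ± 148 CPM (SD, n = 3 and 3; edgeR, adjusted p = 2.19e-05), and the protease inhibitor Serpina3n, from 285 ± 37.4 CPM to 4359 ± 526 CPM (adjusted p = 0.000148, edgeR). These 2 are all that edgeR called in that comparison, among all genes. After SCI 13 of 29 rose and 2 fell (10.1% and 4.31% of all genes), with a median of 1.18 against 0.07 over all genes. Steap4, with 0 counts when uninjured, stood at 23.7 ± 8.54 CPM (SD, n = 4), at least 2015-fold higher than the floor of 3 counts over the group, and Lrg1 at 5.28 ± 1.65 CPM, at least 446-fold higher (edgeR, adjusted p = 0.00652 for each). Vegfa, the angiogenic growth factor, fell by 3.29 ± 0.52 and Hif1a by 0.83 ± 0.21 on the log2 scale (adjusted p = 0.00652 and 0.0327, edgeR). The medians did not change with genes at 0 set to their bound.

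The interaction with Stat3 genotype called 2 of 27 of these genes, both with the smaller response in Stat3cKO mice: Lcn2 by -4.95 ± 1.00 (adjusted p = 0.0334 in edgeR) and Serpina3n by -2.75 ± 0.49 (adjusted p = 0.0196 in edgeR). Over all 10341 genes 0.3% were called with the larger and 0.0774% with the smaller response, and the median over the 27 genes was 0.43, towards the larger response in Stat3cKO mice. In the libraries labelled Stat3cKO LPS, where Stat3 itself was counted at 92.8 to 322 CPM, Serpina3n stood at 276 ± 71.5 CPM (SD, n = 4) against 5421 ± 2338 CPM in WT LPS (SD, n = 4). Between those libraries and WT LPS, 5 of 27 genes were called lower (Serpina3n, Timp1, Lcn2, Vim and Gfap) and 1 higher, against 0.494% and 0.93% of all 10327 genes. The 1 higher was Irf1, an interferon-regulated transcription factor, at 566 ± 405 CPM against 21.9 ± 15.6 CPM (SD, n = 4 and 4), by 4.73 ± 0.66 on the log2 scale (edgeR, adjusted p = 0.00495). Icam1 stood at 314 ± 240 CPM against 33.8 ± 36.6 CPM (SD) and was not called (adjusted p = 0.0629, edgeR). Irf1, Timp1 and Vim are named here after their values were seen.

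Gfap, the astrocyte intermediate filament, was lower in Stat3cKO than in WT mice already when uninjured, at 5418 ± 270 CPM (SD, n = 3) against 19493 ± 2911 CPM (SD, n = 4), by -1.84 ± 0.11 on the log2 scale (edgeR, adjusted p = 5.05e-05). After LPS it stood at 10548 CPM on average in libraries labelled Stat3cKO and at 23452 CPM in WT ones. It rose in Stat3cKO mice by 0.97 ± 0.09 (edgeR, adjusted p = 0.000147), the difference in WT mice of 0.23 ± 0.14 was not called (adjusted p = 0.525, edgeR), and the interaction of 0.72 ± 0.17 was not called (adjusted p = 0.0745, edgeR). No interaction with Smarca4 genotype was called among the 23 tested.

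Over all 25 libraries, the genes whose log2(CPM + 1) pattern lay closest to that of Stat3, by the root mean square difference after centring, were Tmsb4x (0.88), Tnfrsf1a (0.91) and Mt1 (0.95), against a median of 1.68 over 7833 genes. For Osmr they were Fcgr2b (1.03), Ptx3 (1.04) and Steap4 (1.31), against a median of 2.83. For Socs3, over the 22 libraries with a row, they were Steap4 (0.79), Ptx3 (1.09) and Fstl3 (1.23), against a median of 2.36. For Il6st, which varied least, they were Zfr (0.22), Ncam1 (0.24) and Nisch (0.26), against a median of 0.85.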

How the data were processed

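Messages bound to HA-tagged astrocyte ribosomes were sequenced from thoracic spinal cord (50 bp paired-end reads from 10 ng of RNA with an integrity number of at least 8.9, per the labels' protocols). The authors deposited 4 tables with raw counts per gene and library, and the log2 fold change and false discovery rate (an adjusted p-value) of their own comparison. The submitters' processing notes name, with no role or order, the build mm10 and the tools edgeR 3.28.0, HTSeq 0.6.0 and STAR 2.4.0j, and the rule by which genes were left out of each table is not given in the sources used here. The counts have no molecular identifiers, so intervals and floors cover counting error only. Another 56 per-library columns were not used here.

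Raw counts were tested with edgeR 4.0.16 in R 4.3.3 (TMM scaling, filterByExpr, quasi-likelihood test, Benjamini-Hochberg over all genes tested), each comparison on its own groups and the difference between responses as an interaction term, with DESeq2 1.42.0 as an alternative. The fit was tried on simulated counts for some of the comparisons, with known changes placed only in genes above a set mean level. That trial does not cover genes with almost no counts when uninjured, such as Clcf1 and Lif. Levels are CPM over the 7834 genes in all 4 tables, with TMM factors over the 25 libraries. Exact (Clopper-Pearson) intervals at 95% came from scipy 1.17.1. Gene positions are GENCODE M21. The replicates are separate animals by their titles. Genes were named by rule: the 9 members, Smarca4 and Gfap, up to 3 risen and 3 fallen genes of each pathway list in each comparison with uninjured mice, and the 3 genes most like Stat3, Osmr, Socs3 and Il6st. Members and lists were chosen with earlier results of these data known. Other settings tried were RLE scaling, no filter, DESeq2, 1 fit of the 7 groups, levels without TMM and leaving out each library. Some genes of the pathway lists are not reported here.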

Additional observations from a re-analysis of the deposited data

Results flagged for a closer look

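In 3 cases, all in the uninjured WT group of 4, 1 library lay far from the other 3 by Dixon's criterion. Chance meets it in about 1 of 20 groups of normally distributed values, and it was applied to each member in each group of 4. Counts at or near 0 are not so distributed, so that rate does not hold for Socs3 and Clcf1. A library with 1 count beside 3 with 0 always meets the criterion. Osmr stood at 0.0121 CPM in replicate 2, against 6.73 to 7.55 CPM in the other 3. Socs3 stood at 1.95 CPM in replicate 4, against 0 to 0.0599 CPM. Clcf1 stood at 0.0121 CPM in replicate 2, which is 1 count, against 0 in the other 3. Without these libraries in turn, edgeR's adjusted p after LPS in WT mice was 0.00758 for Osmr, 0.0456 for Socs3 and 0.0484 for Clcf1.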

How the results depend on the processing

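RLE scaling and no filter on low counts changed no call of a member in the 11 comparisons. DESeq2 called 4 members in WT mice after LPS in place of 2, 2 in place of 0 in Smarca4cKO mice after LPS, 7 in place of 5 after SCI (Stat3, adjusted p = 0.00261, and Lifr, adjusted p = 0.0104, gained), and 1 in place of 0 in each interaction and in uninjured Smarca4cKO against WT mice. One edgeR fit of the 7 groups, which holds only the 6 members in all 4 tables, called 1 in place of 2 in WT mice after LPS, 3 in place of 5 in Stat3cKO mice after LPS, 1 in place of 0 in Smarca4cKO mice after LPS, 2 in place of 5 after SCI, 2 in place of 1 in uninjured Stat3cKO against WT mice, and 1 in place of 0 in the Smarca4 interaction, in SCI against LPS and in uninjured Smarca4cKO against WT mice. In that fit Stat3 in WT mice (adjusted p = 0.0786) and Jak2 in Stat3cKO mice (adjusted p = 0.194) were no longer called, while Osmr in WT mice after LPS was gained (adjusted p = 0.0114). Over the 11 comparisons 6 differences gained a call and these 2 lost one. The other calls missing from it, after SCI too, are those of Socs3, Clcf1 and Lif, which it does not hold.

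Without 1 library at a time, the members called ran from 0 to 2 in WT mice after LPS, 2 to 4 in Stat3cKO mice after LPS, 0 to 0 in Smarca4cKO mice after LPS, 5 to 6 after SCI, 0 to 2 in the Stat3 and 0 to 1 in the Smarca4 interaction, 0 to 2 in SCI against LPS, 0 to 1 in uninjured Stat3cKO against WT mice and 0 to 0 in the other genotype comparisons. In both uninjured genotype comparisons Osmr was tested in 4 of these 7 fits, since the filter removed it in the others. No called difference changed sign in any setting, and no difference did under RLE, no filter, DESeq2 or the fit of the 7 groups. Without 1 library, 19 of the 75 differences, none of them called, changed sign in at least 1 fit, such as Jak1 (-0.17 to 0.17) and Jak2 (-0.19 to 0.30) in WT mice after LPS.

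Counts over all genes moved more. With DESeq2, genes called higher and lower were 339 and 274 in WT mice after LPS (edgeR 163 and 105), 202 and 86 in Smarca4cKO mice after LPS (2 and 0), 125 and 38 in the Stat3 interaction (31 and 8), 64 and 36 in the Smarca4 interaction (14 and 11), 359 and 445 in SCI against LPS (112 and 132), 29 and 53 (0 and 8) and 153 and 203 (1 and 0) in uninjured Stat3cKO and Smarca4cKO against WT mice, and 216 and 123 (96 and 51) and 10 and 24 (0 and 0) in the same pairs after LPS. The fit of the 7 groups, over fewer genes, called 224 and 132 in Stat3cKO mice after LPS (834 and 403 in its own fit), 201 and 77 in Smarca4cKO mice after LPS, 345 and 423 after SCI (1127 and 479), 0 and 1 in the Stat3 and 47 and 26 in the Smarca4 interaction, 225 and 429 in SCI against LPS, 57 and 119 in uninjured Smarca4cKO against WT mice, and 28 and 41 and 1 and 16 in Stat3cKO and Smarca4cKO against WT mice after LPS.

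No paired analysis was possible because the replicate numbers are accession order and the titles pair no animals across groups. Groups held 3 or 4 animals, and an adjusted p that misses the threshold does not show that a level was unchanged. Tables filtered by an unstated rule leave Socs3, Clcf1 and Lif without values in some groups.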
